A study of Arabidopsis thaliana with 18 samples.

Results

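The nuclear genes for the photosystems, their antennae and the electron carriers between and beyond them were followed in leaves of Arabidopsis thaliana, ecotype Columbia (Col-0). The 49 members were chosen by a rule on locus identifiers from 37686 genes in the files, and all 49 passed the filter on low counts that left 20952 genes. They comprise 6 photosystem I antenna genes (LHCA), 14 photosystem II antenna genes (LHCB), 12 nuclear photosystem I subunits (PSA), 9 nuclear photosystem II subunits (PSB) and 8 genes of electron transport and ATP synthesis. Polyadenylated RNA was taken from the first leaf pair of seedlings aged 9, 12 or 15 days, germinated in constant light on a sucrose medium. The leaves were taken either directly, before culture, or after 1 day as detached explants in constant light on Gamborg B5 medium, which had no sucrose. Each of the 6 groups had 3 libraries, and no genotype, hormone or transgene differed between them. The submitters' design text speaks of biological duplicates, whereas the labels number 3 replicates and name no separate plantings, so the p-values reflect only sample-to-sample spread, which may be technical. Culture combined detachment, wounding, a new medium, the loss of sucrose and 1 more day of age, and these cannot be told apart.

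Photosystems I and II capture light through chlorophyll-binding antenna proteins and pass electrons in series from water to NADP. Photosystem II splits water with the help of extrinsic PSBO, PSBP and PSBQ proteins. The cytochrome b6f complex and plastocyanin carry electrons to photosystem I, ferredoxin and its NADP reductase (FNR) accept them, and ATP synthase uses the proton gradient. Chloroplast genes encode the reaction centre cores, whereas the antenna and most peripheral subunits are nuclear genes whose proteins are imported. Antenna genes are a textbook group of light-induced genes in leaves.

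To show the sequence next to genes that differed widely in their behaviour, the 250 bases upstream of 3 members are printed from the TAIR10.1 assembly, 5′ to 3′ on the strand of the gene and ending at the base before the annotated start. LHCB1.4 and LHCB2.3 had the largest fitted falls in culture at 15 days, and FD2 encodes the ferredoxin whose levels overlapped between the groups at 15 days. They were chosen after these values were seen. Capitals mark CCAAT on either strand, the G-box CACGTG, which reads alike on both, and the I-box GATAAG on either strand. These are 3 motifs that do not overlap each other in these windows.
LHCB1.4 (chr2:14524357-14524606, plus strand): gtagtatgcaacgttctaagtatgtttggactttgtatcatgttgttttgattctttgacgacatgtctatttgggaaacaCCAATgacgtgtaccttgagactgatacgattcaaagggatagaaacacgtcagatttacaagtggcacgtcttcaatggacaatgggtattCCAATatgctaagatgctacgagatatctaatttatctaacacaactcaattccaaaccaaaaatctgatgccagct
LHCB2.3 (chr3:10255656-10255905, plus strand): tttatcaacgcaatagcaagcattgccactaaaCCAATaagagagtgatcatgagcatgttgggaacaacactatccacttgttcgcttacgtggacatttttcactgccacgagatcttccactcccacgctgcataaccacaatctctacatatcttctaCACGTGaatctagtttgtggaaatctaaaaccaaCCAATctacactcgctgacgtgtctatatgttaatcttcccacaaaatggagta
FD2 (chr1:22444057-22444306, plus strand): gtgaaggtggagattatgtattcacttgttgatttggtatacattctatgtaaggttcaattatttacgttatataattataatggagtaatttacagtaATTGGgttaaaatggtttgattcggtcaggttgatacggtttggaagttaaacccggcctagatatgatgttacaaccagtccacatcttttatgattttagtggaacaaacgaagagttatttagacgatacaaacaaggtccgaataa
The LHCB1.4 and LHCB2.3 windows each held CCAAT at 2 places, and that of LHCB2.3 also held a G-box. The FD2 window held CCAAT once, on the other strand.

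Over the members, CCAAT on either strand was in 33 of 49 windows (67.3%), against 12635 of 27443 windows of the same length at protein-coding genes (46%). The complexes differed in this count. CCAAT was in 13 of 14 photosystem II antenna windows and 5 of 6 photosystem I antenna windows, but in 2 of 9 photosystem II subunit windows, 7 of 12 photosystem I subunit windows and 6 of 8 windows of the transport group. The G-box was in 9 of 49 member windows (18.4%) against 6.49% of all windows, and the I-box in 12 of 49 (24.5%) against 12.3%. These matches describe letters in short windows, some of which overlap neighbouring genes, and the shares were not tested.

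The libraries held 29664089 to 51126114 expected counts, of which the 49 members took from 2.89% to 12.0%, with a median of 7.71%. Levels between genes are given as TPM, a share of transcripts that corrects for length, and levels between libraries as CPM, a share of counts after scaling with edgeR's TMM factors; triplets list replicates 1, 2 and 3 in that order. The leaf label matched the markers: the summed level of RBCS1A, CA1 and RCA was at least 17300 TPM in every library, while the shoot meristem gene STM reached at most 0.06 TPM and WUS was listed at 0 in all 18. Replicate 3, whose labels use other field names, stood apart at the younger ages. Summed photosystem II antenna was 34905, 39743 and 12492 TPM at 9 days before culture and 44683, 50166 and 25800.4 TPM at 12 days. In the 9-day library before culture of replicate 3, 47 of 49 members lay below the mean of their group, with a median deviation of -0.67 on the log2 scale. Results are therefore also given without replicate 3. For 19 members some reads were shared with other genes by the authors' counting, and 17 members overlap an annotated locus on the opposite strand. Strand use was not stated, so these 17, among them PSAN, PSBP1, PSBR, PSAG, PSAE1, PSAE2, LHCB1.3, LHCB1.5, LHCB2.3, LHCB4.2, FNR1 and LHCA5, are less certain than the rest.

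Per length, LHCB1.5 was the most abundant member, at 8088 TPM on average over the 18 libraries, followed by the oxygen-evolving protein gene PSBP1 (6751 TPM), the photosystem I docking subunit PSAL (6036 TPM), LHCA1 (6032 TPM) and LHCA3 (5206 TPM). At the other end stood LHCA6 (143 TPM), LHCB4.3 (152 TPM) and LHCA5 (422 TPM). Within the other complexes the lowest were PSAH1 (480.1 TPM), PSBY (571 TPM) and ATPC1 (606 TPM), and the highest of the transport group was PETC (2835 TPM). LHCB2.3 ranged from 28.6 to 3726 TPM over the libraries. Summed by complex, 12-day leaves before culture held 23398, 27032 and 13994 TPM of photosystem I antenna, 29932, 28952 and 22789 TPM of photosystem I subunits and 29188, 28458 and 26475 TPM of photosystem II subunits. The transport group had 12236, 11396 and 14045 TPM in the same leaves. After culture at 15 days these 4 sums were 4225, 7074 and 8446 TPM, 8969, 11885 and 11472 TPM, 8745, 10802 and 11857 TPM and 5665, 6397 and 6382 TPM, below every 15-day library before culture.

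**Figure D1:**
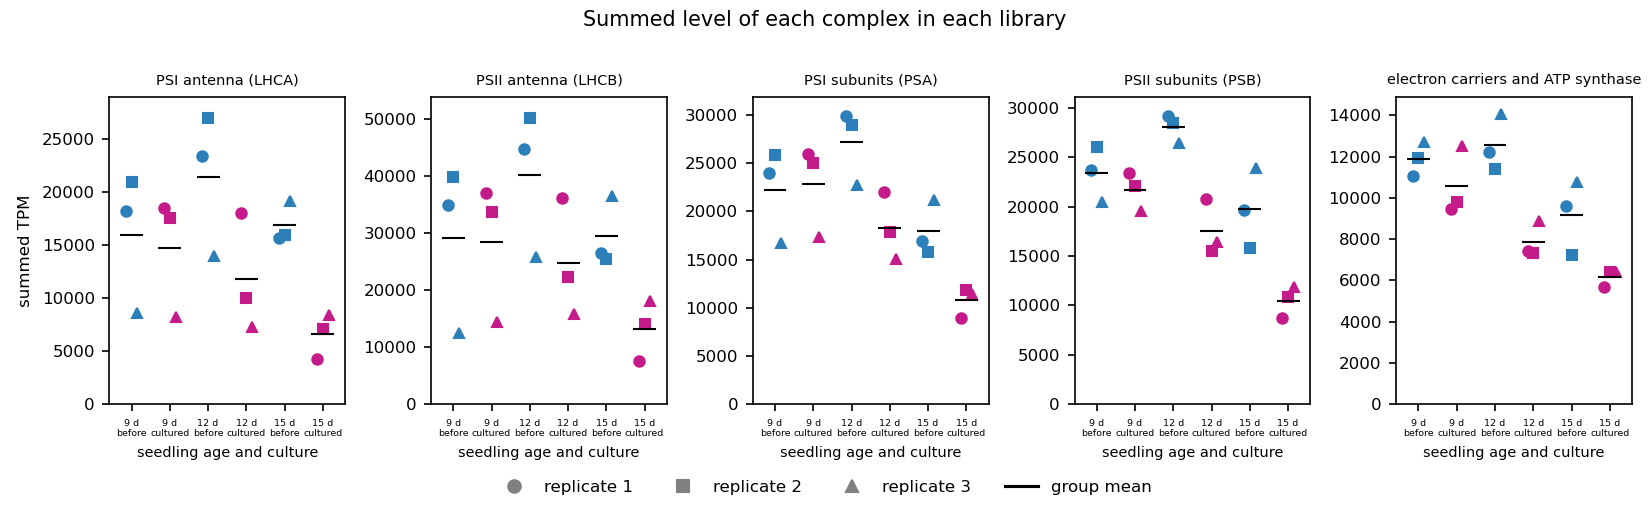
Summed TPM (linear axis from 0) of the members of each complex in each of the 18 libraries, by seedling age and culture; symbols mark the replicate, blue is before culture, magenta after it, and bars are group means. At 15 days every cultured library lay below every library before culture in all 5 panels, and at 9 and 12 days replicate 3 was the lowest library of its group in the antenna panels.

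The first question of the design is what 1 day of culture did at each age. At 12 days 18 of the 49 members fell and none rose, and at 15 days 30 fell and none rose, by the quasi-likelihood test of edgeR at an adjusted p of 0.05 (Benjamini-Hochberg, over all genes tested). At 9 days none was called in either direction. Over all genes tested, the shares called lower were 3.72% at 9 days, 9.33% at 12 days and 20.8% at 15 days. Called higher were 1219, 2181 and 4417 of 20952 genes at the same ages. The median log2 change of the members was -0.22, -0.83 and -0.92 at the 3 ages, beside -0.01, -0.03 and -0.07 over all genes tested. At 12 days all 49 estimates were negative and at 15 days 48 were, ATPD being the exception at 0.01. Cultured libraries lay wholly below those before culture for 2 members at 9 days, 34 at 12 days and 43 at 15 days, where 16.5%, 16.8% and 23.4% of all genes tested did. In RNA from whole leaves, fewer mesophyll cells and less RNA per cell cannot be told apart.

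Leaving replicate 3 out gave 2 called members at 9 days (1.87% of all genes), 27 at 12 days (4.67%) and 34 at 15 days (14.9%), all lower. At 9 days 4 of 49 members had an unadjusted p under 0.05, as had 4940 of all 20952 genes. DESeq2 called 4 members, against 6.54% of all genes lower, and taking out the 9-day replicate 3 before culture alone gave 4, against 2.92%. Without the 15-day replicate 2 or replicate 3 before culture there were 3 and 1, against 5.76% and 4.05%. With replicate number as a block, which the 9-day libraries share in their deviations, 2 members were called lower at 9 days, against 6.62% of all genes, LHCA6 (-0.66, adjusted p = 0.029) and PSBO2 (-0.55, adjusted p = 0.0454). By replicate number the median member differed by -0.22, -0.40 and 0.14 at 9 days, by -0.72, -1.04 and -0.76 at 12 days and by -1.07, -0.68 and -0.96 at 15 days. The 12-day count was 11 without replicate 1 before culture or without the cultured replicate 2, and the 15-day count was 17 without the cultured replicate 1.

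Complex by complex, the calls at 12 days were 2 of 6 photosystem I antenna genes, 1 of 14 photosystem II antenna genes, 4 of 12 photosystem I subunits, 5 of 9 photosystem II subunits and 6 of 8 transport genes. At 15 days they were 5, 6, 7, 6 and 6 in the same order. Over all genes tested 9.33% were called lower at 12 days and 20.8% at 15 days. The medians did not follow the order of the calls. They were -1.08, -0.89, -0.74, -0.75 and -0.88 at 12 days and -1.09, -0.91, -0.86, -0.93 and -0.74 at 15 days. The standard error was larger for the antennae, with a median of 0.52 for LHCB genes at 12 days against 0.25 for the transport group. Photosystem II antenna genes had the fewest calls at 12 days with a median change no smaller than that of the subunits, and differences between complexes were not tested.

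**Figure D2:**
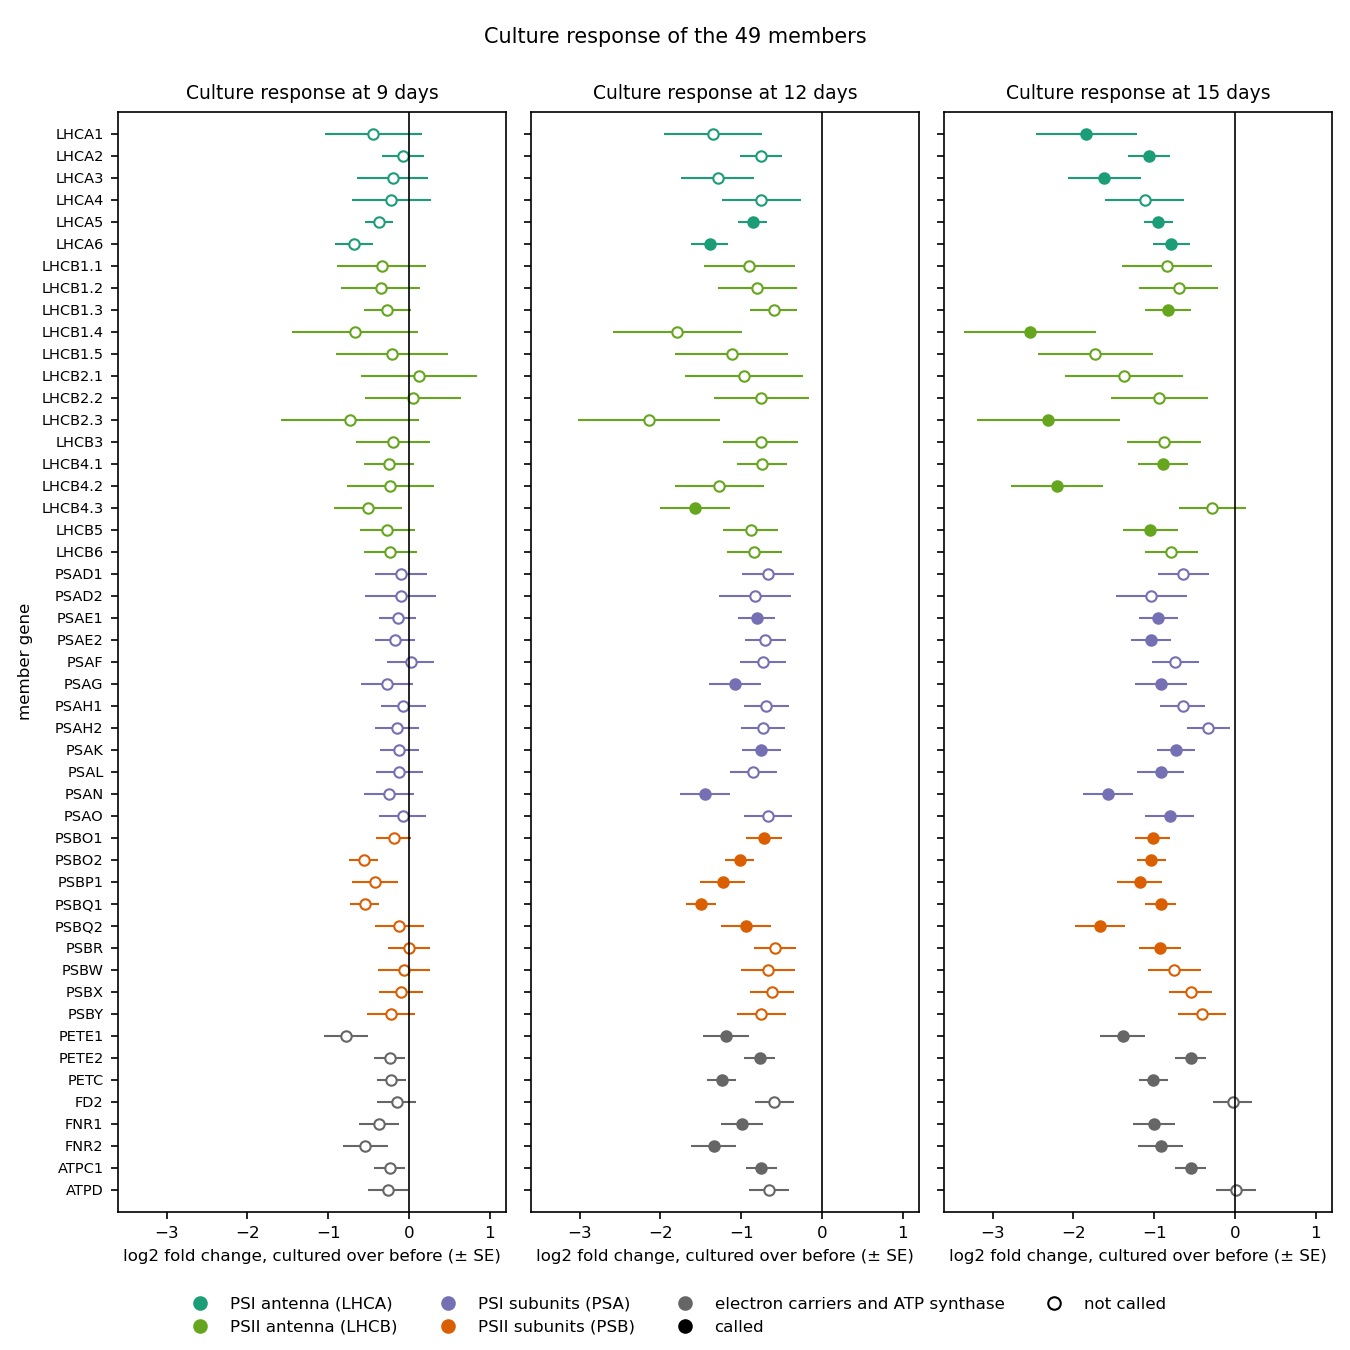
Log2 fold change of cultured over uncultured leaves for each of the 49 members at 9, 12 and 15 days, with bars of 1 standard error; colours mark the complex and filled points were called at an adjusted p of 0.05. No point is filled at 9 days, 18 are at 12 days and 30 at 15 days, and the longest bars belong to LHCB1.4 and LHCB2.3.

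Among the photosystem I antenna genes, LHCA1 to LHCA4 encode the belt around the core, and LHCA5 and LHCA6 are scarce proteins that link photosystem I to the chloroplast NADH dehydrogenase-like complex. LHCA1 (AT3G54890, chr3:20339504-20341176, minus strand) is the most abundant. Before culture LHCA1 stood at 8793, 9669 and 2200.5 CPM at 9 days, 10695, 11416 and 5243 CPM at 12 days and 4793, 6833 and 6465 CPM at 15 days. After culture it stood at 6816, 6458 and 1912 CPM, 6402, 2759.5 and 1595 CPM and 931, 1881 and 2229 CPM at the same ages. Its groups overlapped at 9 days and at 12 days, while at 15 days every cultured library was under the lowest before culture. The estimate was -1.35 ± 0.61 (SE, adjusted p = 0.141) at 12 days, not called, and -1.84 ± 0.62 (SE, adjusted p = 0.0268) at 15 days. That call was lost without replicate 2 or 3 before culture or without the cultured replicate 1 or 2. LHCA3 and LHCA2 fell at 15 days (log2 change -1.62 and -1.06) and kept the call whichever library was left out; LHCA4 had an estimate of -1.12 ± 0.49 (SE, adjusted p = 0.0806), not called.

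LHCA6 (AT1G19150, chr1:6612630-6613972, plus strand) separated the groups at all 3 ages. In leaves before culture LHCA6 was at 231, 249.7 and 155 CPM at 9 days, 234, 179.8 and 175 CPM at 12 days and 110.2, 69.7 and 87.5 CPM at 15 days. In cultured leaves it was at 134, 138 and 125 CPM, 82.8, 74 and 68.2 CPM and 58.2, 59.5 and 37 CPM at the same ages. Every cultured library was lower than every uncultured library of its age. It had an estimate of -0.68 ± 0.23 (SE, adjusted p = 0.076) at 9 days, not called, and fell at 12 days (-1.39, adjusted p = 0.000697) and at 15 days (-0.79, adjusted p = 0.0122). The 15-day call was lost without replicate 1 before culture or the cultured replicate 3. LHCA5 was at 401, 403 and 298 CPM, 386, 407 and 353 CPM and 303, 321 and 332 CPM before culture at the 3 ages and at 262, 303 and 289 CPM, 183, 253 and 195 CPM and 153, 199.9 and 143 CPM after it. LHCA5 fell at 12 days (-0.86) and 15 days (-0.95), and both calls held in each of the 18 fits without 1 library.

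LHCB1 and LHCB2 proteins form the trimers of the major photosystem II antenna, together with LHCB3. LHCB1.5 (AT2G34420, chr2:14522524-14523568, minus strand) is their most abundant transcript, and LHCB1.4 (AT2G34430, chr2:14524607-14525918, plus strand) lies next to it in the opposite orientation. Before culture LHCB1.5 measured 9166, 9455 and 1608 CPM at 9 days, 11268, 13334 and 5752 CPM at 12 days and 6278, 8341 and 10024 CPM at 15 days. After culture it measured 7849, 7757 and 1832 CPM, 7888, 4298 and 1823 CPM and 983, 2598 and 3868 CPM at the same ages. LHCB1.5 was not called at any age, with -1.73 ± 0.71 (SE, adjusted p = 0.0639) at 15 days, although its 15-day groups did not overlap. LHCB1.4 before culture measured 1649, 1813 and 269 CPM at 9 days, 1876, 2404 and 949 CPM at 12 days and 303, 1255 and 466 CPM at 15 days. LHCB1.4 after culture measured 1177, 889.6 and 280.4 CPM, 1071, 248 and 194 CPM and 64.2, 143 and 139.9 CPM at the same ages. It had the largest called fall of all members at 15 days, -2.54 ± 0.82 (SE, adjusted p = 0.0222), lost without replicate 2 before culture or without the cultured replicate 1 or 3. Because near-identical copies share reads, the pair was also summed, which gave -1.77 ± 0.72 (SE, adjusted p = 0.0585) at 15 days.

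LHCB1.1, LHCB1.2 and LHCB1.3 lie beside each other on chromosome 1 and share reads in every library. At 15 days LHCB1.1 was at 1224, 1233 and 1373 CPM before culture and 427, 854 and 860.1 CPM after it, and LHCB1.2 at 1133, 1067 and 1114 CPM and 400.0, 868 and 777 CPM. LHCB1.3 was at 2629.5, 3006 and 2387 CPM before and 1245, 1746 and 1519.8 CPM after culture. None of the 3 overlapped between the groups at 15 days. At 9 and 12 days the uncultured libraries were, for LHCB1.1, 2388, 2797 and 425 CPM and 2604, 3206 and 1384 CPM, and the cultured libraries 1984, 1757 and 699 CPM and 1743, 1291 and 819.6 CPM. For LHCB1.2 the same 4 groups were at 2101, 2596 and 648 CPM, 2305, 2476 and 1419 CPM, 1803, 1758 and 625 CPM and 1678, 1191 and 696 CPM, and for LHCB1.3 at 3868, 4211 and 1787 CPM, 4234, 4656 and 3133 CPM, 3241, 3025 and 1912 CPM and 3086, 2605 and 2247 CPM. These groups overlapped, except those of LHCB1.3 at 12 days. LHCB1.3 alone of the 3 was called, at 15 days (-0.83 ± 0.29 (SE, adjusted p = 0.0337)), and lost the call without replicate 1 or 2 before culture or the cultured replicate 1 or 3. Summed, the 3 genes had an estimate of -0.80 ± 0.40 (SE, adjusted p = 0.119).

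LHCB2.3 (AT3G27690, chr3:10255906-10257489, plus strand) varied widely between libraries. Before culture LHCB2.3 reached 2528, 2634 and 379 CPM at 9 days, 4218, 3039.8 and 1649 CPM at 12 days and 343, 293 and 986 CPM at 15 days. After culture it reached 1764, 1125 and 461 CPM, 1310.3, 323 and 384 CPM and 23.1, 73.8 and 230.2 CPM at the same ages. The 15-day cultured values lay under every other library, and replicates within a group differed several-fold. The estimate was -2.14 ± 0.88 (SE, adjusted p = 0.104) at 12 days, not called, and -2.31 ± 0.89 (SE, adjusted p = 0.0485) at 15 days, a call lost in 12 of 18 fits without 1 library. LHCB2.1 and LHCB2.2, which are close copies, had estimates of -1.37 ± 0.73 (SE, adjusted p = 0.148) and -0.94 ± 0.60 (SE, adjusted p = 0.222), neither called. LHCB3 had an estimate of -0.88 ± 0.46 (SE, adjusted p = 0.14).

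LHCB4, LHCB5 and LHCB6 encode the minor antenna proteins CP29, CP26 and CP24, which connect the trimers to the core. LHCB4.2 (AT3G08940, chr3:2717557-2718923, plus strand) fell at 15 days (log2 change -2.2, SE 0.57, adjusted p = 0.00648), from 2655, 3580.1 and 3848 CPM to 360.5, 743 and 1097 CPM. Leaving out any 1 library kept this call. LHCB4.1 and LHCB5 fell as well (-0.89 and -1.05), each with calls that depended on single 15-day libraries (without replicate 2 before culture or the cultured replicate 1 or 3, and for LHCB4.1 also replicate 1 before culture), and LHCB6 had an estimate of -0.79 ± 0.33 (SE, adjusted p = 0.0711), not called. LHCB4.3 (AT2G40100, chr2:16745628-16747424, plus strand) is the scarcest antenna gene of photosystem II and had another order. Before culture it was measured at 316, 248 and 171 CPM at 9 days, 248, 151 and 215 CPM at 12 days and 96.8, 43.5 and 68.2 CPM at 15 days. After culture it was measured at 124, 203 and 189.6 CPM, 29.4, 101 and 76.7 CPM and 73, 64.8 and 33.5 CPM at the same ages. It fell at 12 days (-1.57, adjusted p = 0.0185), a call lost without replicate 1 before culture, without the cultured replicate 1 or without replicate 3 at every age. At 15 days, where leaves before culture were low, its estimate was -0.28 ± 0.42 (SE, adjusted p = 0.614) and the groups overlapped. The 12-day and 15-day responses of LHCB4.3 differed by 1.29 (log2), which was not called.

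In photosystem I, PSAD and PSAE form the stromal ridge where ferredoxin docks, PSAF and PSAN act on the lumenal side with plastocyanin, PSAG and PSAK sit next to the antenna, and PSAH, PSAL and PSAO take part in docking the mobile photosystem II antenna. PSAN (AT5G64040, chr5:25628521-25629708, minus strand) had the largest fall of the 12, -1.45 ± 0.31 (SE, adjusted p = 0.00415) at 12 days and -1.57 ± 0.31 (SE, adjusted p = 0.00116) at 15 days. It went from 3641, 3699 and 2831 CPM to 1652, 1077 and 982 CPM at 12 days and from 1283, 1652 and 2166 CPM to 408, 632 and 678 CPM at 15 days, with no overlap at either age. At 9 days it was at 2476, 2766 and 1319 CPM and 2096, 2015 and 1417 CPM, with overlap. Both calls held without any 1 library.

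PSAE2, the less abundant PSAE copy, gave 480.0, 538 and 278 CPM, 534, 532 and 411 CPM and 339, 432 and 299.9 CPM before culture and 419.7, 449 and 284 CPM, 353, 296 and 261 CPM and 161, 197 and 161 CPM after it. It fell at 15 days (-1.04), as did PSAE1 (-0.95), both in every fit without 1 library. PSAL, the most abundant of the group, gave 6614, 6714 and 3979 CPM, 7951, 7889 and 5551 CPM and 3313, 3988 and 5037 CPM before culture against 6216, 6033 and 3638 CPM, 4820.4, 4265 and 2811 CPM and 1628, 2486 and 2395 CPM after it. PSAL fell at 15 days (-0.92), a call lost without replicate 3 before culture or without the cultured replicate 1. The scarcest, PSAH1, gave 639, 672 and 325 CPM, 759.7, 734 and 494 CPM and 414, 499 and 402 CPM before and 576, 605 and 375 CPM, 473, 439 and 322 CPM and 268, 336 and 237 CPM after culture. It was not called at any age. PSAG, PSAK and PSAO were called lower at 15 days too, calls lost in 4, 4 and 6 of 18 fits without 1 library. PSAG, PSAK and PSAE1 were called at 12 days, lost in 4, 12 and 4 of 18. The remaining PSAD1, PSAD2, PSAF and PSAH2 had estimates from -0.33 to -1.04 at 15 days and were not called.

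Genes of the extrinsic photosystem II proteins fell at both later ages. PSBQ1 (AT4G21280, chr4:11334352-11335815, plus strand) had the smallest adjusted p of all members at 12 days: 2751, 2596 and 2639 CPM before culture became 1022, 862 and 949 CPM, a change of -1.50 ± 0.19 (SE, adjusted p = 9.05e-05). At 15 days it went from 1006, 828 and 1316 CPM to 514, 564 and 591 CPM, a change of -0.92 ± 0.19 (SE, adjusted p = 0.00129). At 9 days it had 2740.3, 2771 and 1912 CPM and 1712, 1667 and 1702 CPM, without overlap but not called (-0.55 ± 0.18 (SE, adjusted p = 0.0763)). Its relative PSBQ2 (AT4G05180, chr4:2671523-2673243, minus strand) had its larger fall at 15 days, from 3078, 3847 and 3963 CPM to 809, 1138 and 1467 CPM (-1.67 ± 0.31 (SE, adjusted p = 0.000703)). At 12 days PSBQ2 fell by 0.94 (adjusted p = 0.0407), a call lost in 8 of 18 fits without 1 library, whereas the PSBQ1 calls and the 15-day PSBQ2 call held in all 18.

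PSBO2 (AT3G50820, chr3:18890874-18892508, minus strand), a copy of the manganese-stabilising protein gene, fell at the later ages (-1.02 and -1.04), each with an SE of 0.18. PSBO2 before culture had 1158, 1223 and 764 CPM at 9 days, 1353, 1247 and 1124 CPM at 12 days and 880.2, 808 and 951 CPM at 15 days. PSBO2 after culture had 767, 671 and 694 CPM, 676, 577 and 588 CPM and 380.0, 473 and 427 CPM at the same ages. Its groups did not overlap at 12 or 15 days. PSBP1 (AT1G06680, chr1:2047634-2049439, plus strand) fell at both ages too (-1.23 and -1.18). PSBP1 before culture had 8672, 8729 and 6167 CPM at 9 days, 10630.5, 9875 and 10408 CPM at 12 days and 5131, 3584 and 8050.3 CPM at 15 days. PSBP1 after culture had 6484, 5629 and 5553 CPM, 5329, 3671 and 4152 CPM and 1825, 2368 and 3181 CPM at the same ages. The PSBO2 and PSBP1 calls held whichever library was left out. PSBO1 was called at both ages and PSBR at 15 days, and the small membrane subunits PSBW, PSBX and PSBY at neither. The 12-day PSBO1 call (adjusted p = 0.0326) was lost in 5 of 18 fits without 1 library, and the 15-day calls of PSBO1 and PSBR in none. PSBY, the scarcest, was at 761, 767 and 379 CPM, 935, 821 and 519.8 CPM and 467, 405 and 441 CPM before culture and at 655, 615 and 365 CPM, 549, 470.3 and 339 CPM and 328, 389 and 268 CPM after it, with overlap at 9 and 12 days.

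In the transport group, PETC (AT4G03280, chr4:1440146-1441863, plus strand) encodes the Rieske protein of cytochrome b6f and is on the path between the photosystems. Before culture PETC read 2766, 2954 and 2032 CPM at 9 days, 3257, 3325 and 3507 CPM at 12 days and 1950.4, 2137 and 2449 CPM at 15 days. After culture it read 1918, 2131 and 2585 CPM, 1271, 1417 and 1576 CPM and 984, 1149.8 and 1106 CPM at the same ages. It fell at 12 days (-1.24, adjusted p = 0.000248) and at 15 days (-1.01, adjusted p = 0.000481), and at 9 days had an estimate of -0.22 ± 0.18 (SE, adjusted p = 0.497), not called. The plastocyanin genes differed in level. PETE1 gave 818, 607 and 429 CPM, 631, 658 and 522 CPM and 294, 483 and 383 CPM before culture and 461, 354 and 265 CPM, 313, 283 and 199 CPM and 119, 162 and 162 CPM after it, and PETE2 1400.2, 1534 and 881 CPM, 1649, 1584 and 1422 CPM and 992, 929 and 1032 CPM before and 1118, 1145 and 972 CPM, 891, 918 and 925 CPM and 638, 780.3 and 592 CPM after. At 12 days PETE1 (-1.19, adjusted p = 0.00702) and PETE2 (-0.77, adjusted p = 0.00971) both fell, and both calls held in all 18 fits without 1 library. At 15 days PETE1 (-1.39) and PETE2 (-0.55) both fell too. The 15-day PETE2 call was lost without replicate 1 or 3 of either 15-day group. Whether the 2 copies differ in their response was not tested.

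Both leaf FNR genes fell at 12 and 15 days. FNR1 gave 2418, 2515 and 2689 CPM, 2832, 2393 and 3471 CPM and 2081, 1458 and 2603 CPM before culture and 1656, 1640.3 and 2599 CPM, 1315, 1306 and 1753 CPM and 851, 922 and 1308 CPM after it. FNR2 before culture gave 2026, 2224 and 3207 CPM at 9 days, 1681, 1565 and 3011 CPM at 12 days and 1311, 1274 and 1516 CPM at 15 days. FNR2 after culture gave 1242, 1586 and 2315 CPM, 796, 686 and 987 CPM and 673, 785 and 704 CPM at the same ages. Replicate 3 was the highest library for FNR1 and FNR2 before culture at every age. For both summed antennae it was the lowest library before culture at 9 and 12 days and the highest at 15 days. The FNR1 change was -0.99 at 12 days, lost without replicate 3 before culture or the cultured replicate 1 or 2, and -1 at 15 days. The FNR2 change was -1.34 at 12 days and -0.92 at 15 days, the latter lost without the cultured replicate 1.

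Ferredoxin FD2 and the ATP synthase delta subunit gene ATPD, singled out after their values were seen, were the members with the smallest 15-day change. FD2 before culture gave 815, 920.5 and 432 CPM at 9 days, 1026, 936 and 810.0 CPM at 12 days and 664, 529 and 503 CPM at 15 days. FD2 after culture gave 646, 672 and 634 CPM, 615, 633 and 593 CPM and 572, 669 and 423 CPM at the same ages. ATPD before culture gave 732, 776 and 541 CPM at 9 days, 894, 667 and 746 CPM at 12 days and 403, 197 and 479 CPM at 15 days. ATPD after culture gave 601, 575 and 536 CPM, 487, 489 and 487 CPM and 347, 419.7 and 318 CPM at the same ages. For both, each library before culture at 15 days was lower than each at 12 days, and the 15-day groups overlapped. At 12 days the cultured libraries of both lay below those before culture, with estimates of -0.59 for FD2 (adjusted p = 0.0985) and -0.66 for ATPD (adjusted p = 0.0836). FD2 was called there with replicate number as a block (adjusted p = 0.0421), and ATPD without the 12-day and 15-day replicates 2 before culture (adjusted p = 0.00908). Neither was called at any age in the fit over all libraries, with -0.03 ± 0.24 (SE, adjusted p = 0.94) for FD2 and 0.01 ± 0.25 (SE, adjusted p = 0.983) for ATPD at 15 days. The gamma subunit gene ATPC1 gave 891, 1015 and 705 CPM, 1116, 952 and 905 CPM and 773, 478 and 713 CPM before culture and 769, 768 and 675 CPM, 611, 569 and 587 CPM and 433, 507 and 404 CPM after it. It fell at 12 days (-0.75), lost without replicate 1 before culture or the cultured replicate 2, and at 15 days (-0.55), lost in 5 of 18 fits without 1 library. The ATPC1 groups overlapped at 15 days.

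**Figure D3:**
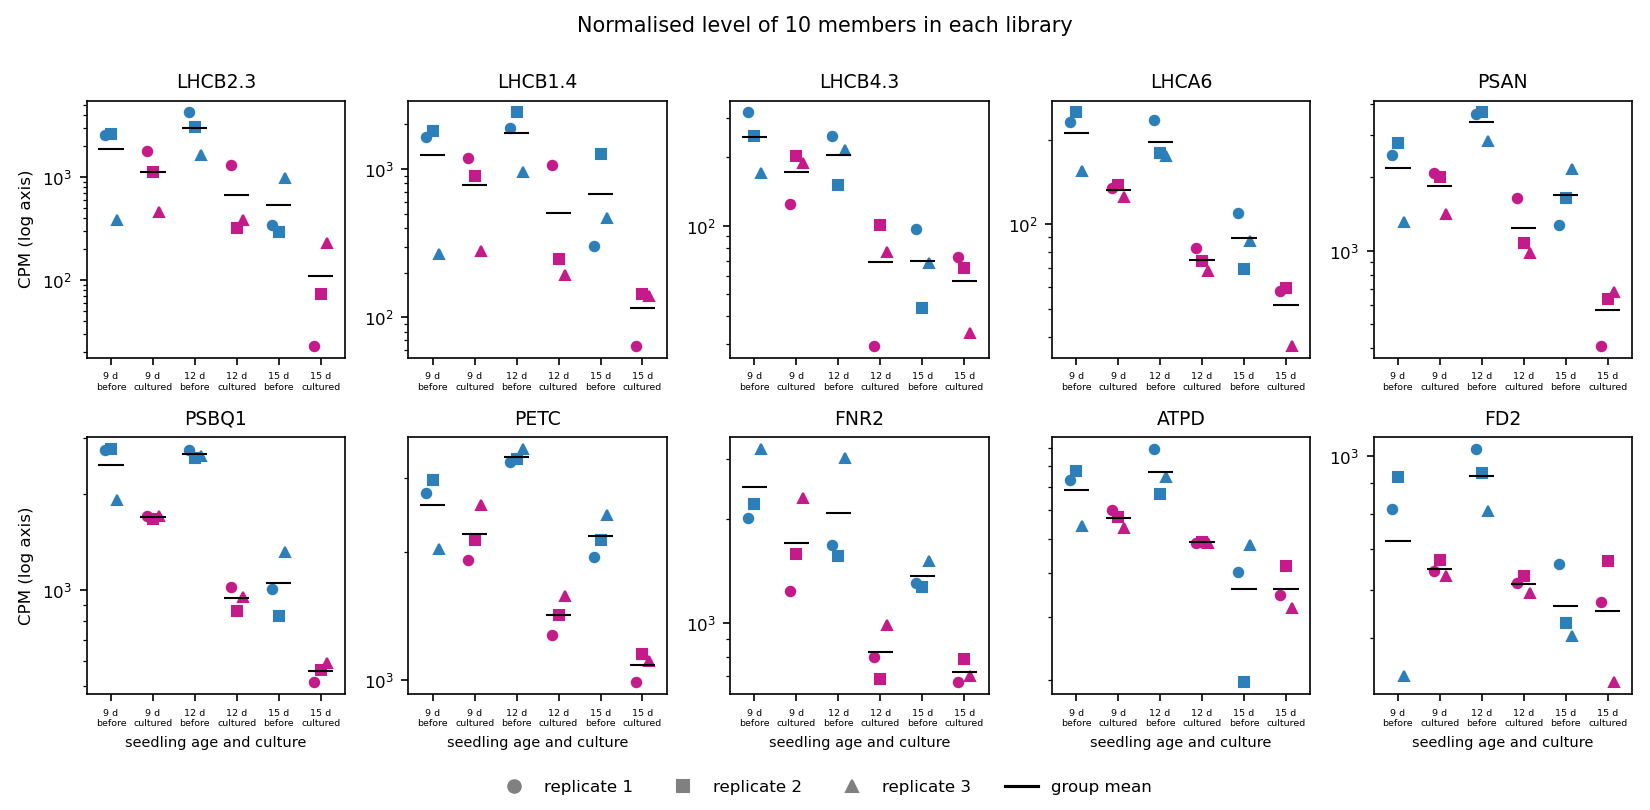
Normalised level (CPM, log axis, each panel with its own scale) of 10 members in each of the 18 libraries; symbols mark the replicate, blue is before culture, magenta after it, and bars are group means. PSAN, PSBQ1, PETC, LHCA6, FNR2 and LHCB2.3 separate cultured from uncultured libraries at 12 and at 15 days. LHCB2.3 and LHCB1.4 fall over a wide range with large spread, and ATPD and FD2 overlap at 15 days.

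The balance of antenna to subunit transcripts is a ratio within a library and does not depend on scaling. Summed LHCA over summed PSA was 0.922, 1.01 and 0.905 before culture at 15 days and 0.471, 0.595 and 0.736 after it, with no overlap. Summed LHCB over summed PSB was 1.34, 1.61 and 1.52 and 0.853, 1.29 and 1.52, which overlapped. At 12 days the photosystem I ratio was 0.782, 0.934 and 0.614 before and 0.819, 0.562 and 0.48 after culture, and at 9 days 0.762, 0.81 and 0.512 and 0.714, 0.7 and 0.474. The photosystem II ratio of 12-day leaves was 1.53, 1.76 and 0.975 uncultured and 1.74, 1.44 and 0.969 cultured. At 9 days it was 1.47, 1.53 and 0.61 and 1.58, 1.52 and 0.731. Replicate 3 was lowest in each 9-day and 12-day group, and the groups overlapped at both ages. Across the 49 genes, which are not independent and share the same libraries, the log2 mean level and the 15-day change had a Pearson r of -0.46, with 0.23 at 9 days and -0.07 at 12 days.

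**Figure D4:**
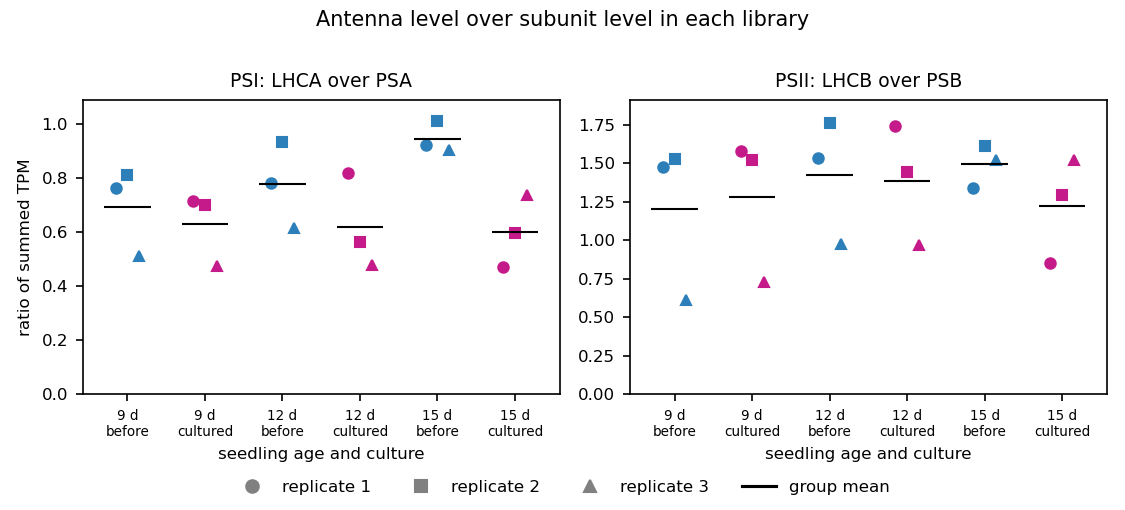
Ratio of summed antenna TPM to summed subunit TPM (linear axis from 0) for photosystem I, left, and photosystem II, right, in each of the 18 libraries; symbols mark the replicate, blue is before culture, magenta after it, and bars are group means. The photosystem I ratio lies lower after culture without overlap at 15 days. The photosystem II ratio overlaps at every age, at 15 days only through the cultured replicate 3.

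Age before culture was the next comparison. From 9 to 12 days no member was called in either direction, with a median change of 0.35 beside 0.02 over all genes. Of all genes 4.02% were called lower and 717 of 20952 higher. Of the 49 estimates only 4 were negative. No member lay lower without overlap (14.3% of all genes) and 4 lay higher, for which the share of all genes was not counted. At an unadjusted p under 0.05 there were 1 member and 5132 of all 20952 genes, and DESeq2 called no member where it called 6.95% of all genes lower. From 12 to 15 days 11 members fell and none rose, against 9.3% of all genes called lower and 1098 of 20952 called higher. All 49 estimates were negative, with a median of -0.61, and 29 members lay lower without overlap (13.5% of all genes). The calls were LHCA6, LHCB4.3, PSAG, PSAH2, PSAN, PSBP1, PSBQ1, PETE2, PETC, ATPC1 and ATPD. The largest were LHCB4.3 (-1.56 ± 0.43 (SE, adjusted p = 0.0255)), PSBQ1 (-1.34 ± 0.19 (SE, adjusted p = 0.000326)), LHCA6 (-1.14 ± 0.23 (SE, adjusted p = 0.00416)) and ATPD (-1.10 ± 0.26 (SE, adjusted p = 0.0103)). PSBQ1 and LHCA6 alone held in all 18 fits without 1 library, but when only these groups were fitted no member was called (PSBQ1 adjusted p = 0.0747, LHCA6 adjusted p = 0.116). The ATPD call was lost without the 12-day replicate 1, and that of LHCB4.3 without replicate 1 or 3 at 12 days or replicate 2 or 3 at 15 days. The count was 2 without the 12-day replicate 1, 7 without its replicate 2, 4 without its replicate 3, 6 and 3 without the 15-day replicates 1 and 2, and 7 without replicate 2 of any 1 of the 3 cultured groups. Without replicate 3 throughout it was 17, against 4.04% of all genes. With replicate number as a block, since same-numbered libraries of these groups deviate together, 18 members were called lower, the 11 among them, against 13.1% of all genes.

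From 9 to 15 days before culture 6 members fell, LHCB4.3 (-1.82 ± 0.43 (SE, adjusted p = 0.00356)), LHCA6 (-1.25 ± 0.23 (SE, adjusted p = 0.000567)), PSBQ1 (-1.24 ± 0.19 (SE, adjusted p = 0.000114)), ATPD (-0.93 ± 0.26 (SE, adjusted p = 0.00884)), FNR2 (-0.86 ± 0.28 (SE, adjusted p = 0.0208)) and PSAH2 (-0.84 ± 0.27 (SE, adjusted p = 0.0219)). None rose, where 4858 of 20952 genes were called higher. The 6 are a smaller share of the members than the 22% of all genes called lower. LHCB4.3, LHCA6, PSBQ1 and ATPD kept the call without any 1 library, while FNR2 lost it without the 9-day replicate 3 or the 15-day replicate 1 or 2, and PSAH2 without replicate 1 or 2 at 9 days or replicate 2 at 15 days. Without the 9-day replicate 3 the count was 15, and without replicate 3 throughout it was 24 (18.9% of all genes). These 2 age comparisons share the 15-day libraries.

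After culture, 31 members were lower at 15 than at 9 days and none higher. Over all genes 13.1% were called lower and 2273 of 20952 higher. The calls covered 3 of 6 photosystem I antenna genes, 7 of 14 photosystem II antenna genes, 9 of 12 and 6 of 9 subunits of photosystems I and II and 6 of 8 transport genes. The median was -1.05 beside 0 over all genes, and 35 members lay lower without overlap (25.8% of all genes). The largest called falls were LHCB2.3 (-3.36 ± 0.93 (SE, adjusted p = 0.0169)) and LHCB1.4 (-2.76 ± 0.83 (SE, adjusted p = 0.0257)), both lost in several fits without 1 library (3 and 5 of 18). PSBQ1 had the smallest adjusted p (-1.61 ± 0.19 (SE, adjusted p = 7.46e-05)), and it, PSAN (-1.69 ± 0.31 (SE, adjusted p = 0.0017)) and LHCA6 (-1.36 ± 0.23 (SE, adjusted p = 0.000883)) were among 15 that held in all 18. The count was 19 without the 9-day cultured replicate 2 and 16 without the 15-day cultured replicate 1. Without replicate 3 it was 44 (7.77% of all genes).

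Between 9 and 12 days after culture FNR2 (-1.06 ± 0.28 (SE, adjusted p = 0.044)) and PSBQ1 (-0.84 ± 0.18 (SE, adjusted p = 0.0176)) fell, where 2.52% of all genes were called lower. With replicate number as a block, which these 2 groups share in their deviations, 4 members were called lower (4.66% of all genes), and without replicate 3 none was (0.412%). Single libraries moved the count between 0 and 4: it was 0 without the 9-day cultured replicate 2 or the 12-day cultured replicate 2 or 3, 4 without the 9-day replicate 3 or the 15-day replicate 2 before culture, and 1 in 9 other fits. Between 12 and 15 days after culture no member was called, where 0.143% of all genes were called lower and 11 of 20952 higher. At an unadjusted p under 0.05 there were 25 of 49 members and 2782 of all 20952 genes, and DESeq2 called 5 members and 1.79% of all genes lower. All 49 estimates were negative with a median of -0.76, and 30 lay lower without overlap (12.8% of all genes).

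Whether culture acted differently at different ages was tested as the difference between culture responses. From 9 to 15 days 3 members had a more negative response and none a more positive one. The 3 are a smaller share of the members than the 9.77% of all genes called lower, and 2313 of 20952 genes were called higher. The 3 members were PSBQ2 (-1.55 ± 0.43 (SE, adjusted p = 0.0202)), PSAN (-1.32 ± 0.43 (SE, adjusted p = 0.0425)) and PETC (-0.79 ± 0.25 (SE, adjusted p = 0.037)). The PSBQ2 response was -0.12 at 9 days and -1.67 at 15 days, from 4134, 4463 and 2677 CPM and 4110.3, 3799 and 2474 CPM at 9 days. None of the 3 held in every fit without 1 library: PSBQ2 was lost without the cultured replicate 1 of 9 or of 15 days, PSAN in 10 and PETC in 9 of 18. The count was 5 without the 9-day replicate 2 before culture, 0 without the 15-day cultured replicate 1 and 1 without replicate 1 or 3 before culture or cultured replicate 1 or 2 at 9 days, replicate 1 before culture at 12 days, or replicate 3 before culture or cultured replicate 2 at 15 days. Without replicate 3 it was 2 (3.83% of all genes). The median member differed by -0.69, beside -0.10 over all genes.

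Between 9 and 12 days the response differed by a median of -0.61 over the members, all 49 negative, but no member was called, as with nearly all genes (0.0382% called lower). At an unadjusted p under 0.05 there were 4 members and 2218 of all 20952 genes, and DESeq2 called 2 members and 1.14% of all genes lower. Between 12 and 15 days the median was -0.08, and no member was called where 0.821% of all genes were lower and 410 of 20952 higher. At an unadjusted p under 0.05 there were 2 members and 3732 of all 20952 genes, and DESeq2 called no member and 2.44% of all genes lower. By complex, the 12-to-15-day median ranged from -0.32 for the photosystem I antenna to 0.22 for the transport group, with SEs of 0.49 and 0.35 for a typical member.

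Genes around the same pathway were described from 3 lists. Of 13 chlorophyll synthesis genes 4, 7 and 5 fell in culture at 9, 12 and 15 days, and none rose. Over all genes tested 3.72%, 9.33% and 20.8% were called lower at these ages, and 1219, 2181 and 4417 of 20952 higher. CHLM, the magnesium-protoporphyrin methyltransferase, fell at all 3 ages (-1.03, -1.8 and -1.88) and went from 419, 507 and 456 CPM to 111, 141 and 123 CPM at 15 days. PORA, a protochlorophyllide reductase, was scarce, with 1.7, 1.48 and 1.56 CPM in uncultured and 0.298, 0.322 and 0.024 CPM in cultured 9-day leaves (-2.89 ± 0.73, SE, adjusted p = 0.0213). HEMA1, the glutamyl-tRNA reductase at the start of the pathway, had estimates of -0.29, -1.03 and -0.71 and was not called.

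The next 2 lists stand beside 3.72%, 9.33% and 20.8% of all genes called lower in culture at 9, 12 and 15 days. Called higher were 1219, 2181 and 4417 of 20952 genes. Of 14 genes of antenna regulation and insertion 1, 11 and 9 fell and 1, 2 and 2 rose. Those that rose were the early light-induced proteins, relatives of the antenna made under light stress. ELIP1 went from 2.66, 1.61 and 8.21 CPM to 249, 193 and 101 CPM at 15 days, and rose by 3.14, 5.35 and 5.43 at 9, 12 and 15 days. ELIP2 rose by 1.86 and 3.36 at the later ages, and at 9 days its estimate of 0.66 was not called. At 9 days the gene that fell was CPSRP54, of antenna insertion (-0.81). The largest fall of this list was that of TAP38, the phosphatase of the mobile antenna, at 15 days (-1.62), and that of PGRL1A, of cyclic electron flow, at 12 days (-1.36). PSBS, the quenching protein, had estimates of -0.64, -0.88 and -0.06, called at 12 days. Of 6 regulators none was called at 9 or 12 days and 4 fell at 15 days, GNC, SIG5, GLK2 (-1.52 ± 0.43, SE, adjusted p = 0.0105) and the GATA factor CGA1. CGA1 went from 4.4, 16.8 and 6.28 CPM to 0.343, 0.47 and 0.235 CPM. GLK1, the other GOLDEN2-like activator of photosynthesis genes, had estimates of 0.37, 0.49 and -0.13 and was not called.

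Markers of leaf cell types were measured in the same libraries. The summed RBCS1A, CA1 and RCA level of 9-day leaves was 52400 to 64600 TPM uncultured and 35000 to 39900 TPM cultured. In 12-day leaves it was 47600 to 57200 TPM and 23000 to 23900 TPM, and in 15-day leaves 19400 to 36000 TPM and 17300 to 18600 TPM. Of these 3 genes 2, 3 and 2 were called lower at the 3 ages, beside 3.72%, 9.33% and 20.8% of all genes. The sum of these 3 genes thus lay lower after culture at every age. RBCS1A by itself overlapped at 15 days, with 14807, 9892 and 13002 CPM before culture and 11140, 11247 and 9039 CPM after it. Phloem markers lay between 44.0 and 147 TPM before and between 73.5 and 118 TPM after culture, and overlapped at each age. The 3 epidermal markers ATML1, PDF1 and FDH summed to 218 to 252 TPM before and 110 to 151 TPM after culture at 9 days, to 107 to 131 TPM and 81.1 to 129 TPM at 12 days and to 96.6 to 101 TPM and 69.8 to 86.2 TPM at 15 days, without overlap at 9 and 15 days. PDF1 went from 120, 106 and 77.9 CPM to 9.84, 10.8 and 13.6 CPM at 9 days (-3.15 ± 0.41, SE, adjusted p = 0.000241) and was called lower at 12 days too, and ATML1 was called lower at 12 and 15 days. Guard cell markers lay between 19.6 and 91.2 TPM before and between 13.8 and 80.9 TPM after culture. The 3 root genes lay between 9.65 and 26 TPM before and between 15.3 and 24 TPM after it. Both sums overlapped at each age, but single genes were called. Of 3 guard cell markers 1 was called higher and 1 lower in culture at 15 days. Of 2 phloem markers 1 was called lower at 15 days. Of the root genes 1 was called higher at 12 days and 1 at 15 days. Over all 20952 genes tested, 2181 were called higher at 12 days and 4417 at 15 days, and 20.8% were called lower at 15 days. The part of cell make-up in the changes of the members was not tested.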

How the data were processed

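Reads were trimmed with Trimmomatic (no version stated), aligned to TAIR10 with STAR 2.5.3 and counted by RSEM 1.3.0 per the submitters' processing notes. For each library the authors deposited, per the file headers, the expected count of each gene, in which reads that fit several genes are shared, and TPM, which is scaled by effective length; the deposited FPKM was not used. Strand setting and annotation version are not given in the sources used here.

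Expected counts were rounded, scaled with TMM factors and filtered with filterByExpr (minimum count 10). One model over all 18 libraries, with a mean for each group, gave 12 contrasts by edgeR's quasi-likelihood test (edgeR 4.0.16, limma 3.58.1, R 4.3.3; common biological coefficient of variation 0.340). Adjusted p-values are Benjamini-Hochberg values over 20952 genes with a threshold of 0.05, and the SE is the log2 fold change divided by the square root of F. Alternatives were RLE scaling, scaling without the members, no filter, DESeq2 1.42.0, a replicate block, a batch term for replicate 3, only the groups compared, and left-out libraries. Leaving out replicate 3 throughout was chosen after seeing the data.

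Same-numbered libraries deviated together in every pair (r from 0.256 up) in 3 of the comparisons, those between both 9-day groups, between the cultured 9-day and 12-day groups and between the 12-day and 15-day groups before culture; the labels name no shared batch. Coordinates, 1-based, and sequences come from RefSeq's TAIR10.1, in which 20486 of 20641 single-transcript genes (99.2%) had the length given in the files to within 0.5 nt. Members, lists and the sequences shown were chosen with earlier results of these data known. Any member could be named. Given by library were the highest and lowest of each complex by mean TPM and LHCA5, LHCA6, LHCB4.3, LHCB2.3, PSAE2, PSBO2, PETE1, PETE2, FNR1, FNR2 and LHCB1.1 to LHCB1.3. Outside this list, PSAN, PSBQ1, PSBQ2, LHCB4.2, LHCB1.4, FD2 and ATPD were given by library as well, with their results known. The largest called change of each contrast, and of each further list, was named too, as were GLK1, GLK2, PSBS, ELIP1, ELIP2, PORA and HEMA1. Plots were made in matplotlib 3.10.9 under Python 3.11.15.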

Additional observations from a re-analysis of the deposited data

Results flagged for a closer look

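The culture response of 3 members differed between 15 and 9 days by a test of the difference itself (edgeR's quasi-likelihood test, adjusted over all genes tested). They are a smaller share of the members than the 9.77% of all genes called lower in this test. The difference was -1.32 on the log2 scale for PSAN (adjusted p = 0.0425), -1.55 for PSBQ2 (adjusted p = 0.0202) and -0.79 for PETC (adjusted p = 0.037), each more negative at 15 days. None of the 3 held in every fit without 1 library, and without the 15-day cultured replicate 1 no member was called. Without replicate 3 the PETC difference was -0.37 (adjusted p = 0.276) and the PSAN difference was -1.08 (adjusted p = 0.0976).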

How the results depend on the processing

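The counts of called members, all lower, depended on the setting as follows, with the share of all genes called lower in brackets. At 9 days in culture (0 as reported) there were 2 with the replicate block (6.62%), 3 with a batch term for replicate 3 (6.29%), 3 without the 12-day and 15-day replicates 2 before culture, which stand apart (7.85%), and 4 by DESeq2 (6.54%). At 12 days (18 as reported) there were 34 with the block (13%) and 34 with the batch term (12.6%). For 15 against 12 days before culture (11 as reported) there were 6 without a filter (6.07%), 18 with the block (13.1%), 20 with the batch term (12.5%), 3 without the libraries set apart (10.8%), 0 when only the groups compared were fitted (0.103%) and 18 by DESeq2 (11.8%). For 15 against 9 days before culture (6 as reported) there were 3 with only the groups compared (15.1%). For 12 against 9 days after culture (2 as reported) there was 1 without a filter (1.6%) and 4 with the block (4.66%), 4 with the batch term (4.46%), 4 without the libraries set apart (5.56%) and 5 by DESeq2 (4.49%). For 15 against 12 days after culture (0 as reported) there was 1 with the block (0.783%), 1 with the batch term (0.783%), 2 without the libraries set apart (1.77%) and 5 by DESeq2 (1.79%). The difference between the 12-day and 9-day responses (0 as reported) had 2 by DESeq2 (1.14%), and that between 15 and 9 days (3 as reported) had 1 without a filter (6.4%), 9 with the block (14.6%), 7 with the batch term (14.1%), 1 with only the groups compared (7.85%) and 5 by DESeq2 (12.3%). The cause was not tested. Leaving out a library, or replicate 3 throughout, gave 0 to 4 at 9 days, 11 to 27 at 12 days and 17 to 37 at 15 days in culture. The ranges were 2 to 17 and 5 to 24 before culture for 15 against 12 and 9 days, 0 to 4 and 16 to 44 after culture for 12 and 15 against 9 days, and 0 to 5 for the difference between 15 and 9 days; the other 4 counts stayed at 0. No scaling moved the median of all genes by over 0.1 on the log2 scale.

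Of the gene results 128 were recomputed under each setting, which leaves out some members at some ages. The sign turned in 7 of these, none of them called. ATPD at 15 days (0.01) was 0 when scaled without the members, 0 without a filter and -0.30 without the libraries set apart, and ranged from -0.29 to 0.38 without single libraries or replicate 3. The same ranges at 9 days were -0.81 to 0.06 for LHCB1.1, -0.75 to 0.01 for LHCB1.2, -0.40 to 0.01 for PSAE2 and -0.44 to 0.05 for FD2, and at 15 days -0.53 to 0.03 for LHCB4.3 and -0.19 to 0.14 for FD2. In the other comparisons of 2 groups the same-numbered libraries did not all deviate together. Replicate 3 deviated in the same direction in all 15 pairs of groups, with r from 0.11 to 0.643. The range was -0.34 to 0.375 for replicate 1 and -0.119 to 0.732 for replicate 2.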
